A study of Mus musculus with 4 samples.

Results

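The genes described here are Cish, Socs1, Socs2, Socs3, Pim1, Pim2 and Osm, which are induced through the transcription factor STAT5 in many blood cells. They were chosen by name, as 7 of the 32285 genes counted, and their level and the share of cells holding their transcripts were read in 4 cell classes. The cells were thymocytes of C57BL/6J mice aged 3 weeks, with 4 thymi pooled per genotype, depleted of CD8-bearing cells and sorted as live CD4+ HSA+ CD73- cells on either side of a CD25 gate. The groups were knockout-labelled CD25+, WT CD25+, knockout-labelled CD25- and WT CD25-, where knockout means loss of PD-1, an inhibitory receptor of T cells, and WT means wild type. Each group was 1 single-cell library (10x Genomics 5′ chemistry), so no difference between groups, or between cell classes within a library, was tested, and genotype cannot be told apart from pool or library. The protocol in the labels lists CD74, not CD73, among the stains.

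Cytokines such as interleukin 2 and interleukin 7 bind receptors that carry JAK kinases. The JAKs phosphorylate STAT5, which enters the nucleus and binds paired half-sites of the form TTC and GAA. Among its targets are inhibitors that close the loop: CIS (the product of Cish) and the SOCS proteins bind receptors or JAKs and carry a SOCS box that recruits a ubiquitin ligase. PIM kinases act without an activating partner, so their activity follows their amount, and they support survival and translation. In the thymus, interleukin 2 signalling through STAT5 is needed for regulatory T cells (Tregs), which express Foxp3, to form from CD25+ precursors.

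The genes lie on different chromosomes apart from Socs3 and Osm (mm10, GENCODE M21). Cish is at chr9:107296026-107302784 on the plus strand, Socs1 at chr16:10782240-10785536 on the minus strand, Socs2 at chr10:95385362-95417180 on the minus strand and Socs3 at chr11:117966079-117970047 on the minus strand. Pim1 is at chr17:29490753-29496112, Pim2 at chrX:7878262-7883432 and Osm at chr11:4236420-4241026, all on the plus strand. Promoter windows from RefSeq (GRCm38.p6, 250 bases before to 50 after a gene's start) matched 5 of the 7 genes, in 6 windows. They were searched for TTCNNNGAA, the palindromic form of a STAT5 site, which reads the same on both strands. Cish held 2 matches and Socs3 held 1, whereas the windows of Socs1, Pim1 and Pim2 held none of these letters. Of all 32851 windows in the table, 2726 (8.30%) held at least 1 match and 150 (0.457%) held 2 or more. The windows of Cish (chr9:107296409-107296708, plus strand) and Socs3 (chr11:117969317-117969616, minus strand) are printed because they hold the matches, which are in capitals.
Cish: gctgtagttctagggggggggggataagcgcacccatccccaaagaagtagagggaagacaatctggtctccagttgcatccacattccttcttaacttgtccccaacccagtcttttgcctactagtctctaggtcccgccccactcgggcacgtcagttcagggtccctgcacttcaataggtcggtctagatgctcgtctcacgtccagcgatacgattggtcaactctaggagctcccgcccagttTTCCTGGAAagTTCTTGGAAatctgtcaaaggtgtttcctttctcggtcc
Socs3: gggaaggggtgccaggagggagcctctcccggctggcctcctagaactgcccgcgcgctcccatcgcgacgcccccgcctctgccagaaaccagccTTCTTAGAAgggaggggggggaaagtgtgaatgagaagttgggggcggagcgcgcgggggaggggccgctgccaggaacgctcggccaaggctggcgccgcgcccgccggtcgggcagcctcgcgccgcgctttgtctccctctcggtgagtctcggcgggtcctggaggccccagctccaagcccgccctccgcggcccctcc
The first Cish match begins at the RefSeq start of the gene, and the second begins 11 bases further on. The Socs3 match begins 154 bases before the RefSeq start of that gene. Both printed windows lie inside the GENCODE spans given above, so by those spans the matches are within the genes. Such a match is a run of letters and not a measured binding site.

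The CD25+ libraries kept 9236 cells (68989300 UMIs) in the knockout-labelled and 7649 cells (54064164 UMIs) in the WT sample, and the CD25- libraries kept 1716 cells (11159298 UMIs) and 2985 cells (13580881 UMIs). A UMI is a unique molecular identifier, which marks 1 captured transcript. Between 4 and 96 barcodes were shared by any pair of libraries. The cells were divided by UMIs of class genes: Foxp3+ cells (1 or more Foxp3 UMI), the pre-TCR class (no Foxp3 or Cd4 UMI and at least 1 of Ptcra, the pre-T cell receptor chain), the CD25 progenitor class (Il2ra, which encodes CD25, with Cd4 or Trac) and other CD4 cells (Cd4 or Trac alone). In the CD25+ gate, which was sorted as CD4+, the pre-TCR class made up 6586 knockout-labelled cells (71.3%) and 4791 WT cells (62.6%), at 0 Cd4 UMIs by its definition. Foxp3+ cells numbered 389 in the knockout-labelled and 679 in the WT CD25+ library, and 59 and 51 in the CD25- libraries. The progenitor class held 325 and 326 cells in the CD25+ libraries and only 20 and 13 in the CD25- libraries, where it was not compared. Other CD4 cells numbered 438 and 701 in the CD25+ gate and 1414 and 2265 in the CD25- gate. Levels are given as CPM, the UMIs of a gene per 1000000 UMIs of its class. Pdcd1, which encodes PD-1, measured 18.9 CPM (knockout-labelled) and 16.0 CPM (WT) over the CD25+ libraries, and 27.2 and 18.3 CPM over the CD25- libraries. It was not lower in the libraries labelled knockout, and since 5′ reads can lie outside a deleted part, this level checks nothing.

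The classes were set against marker genes that, apart from Ptcra, had not been used to form them. Ptcra formed the pre-TCR class, so its high level there follows from the rule. The rule also took cells with Ptcra and no Cd4 UMI out of the progenitor and other CD4 classes. Foxp3+ cells of the CD25+ gate carried Treg transcripts, with 241 CPM (knockout-labelled) and 304 CPM (WT) of Ctla4, against 37.9 and 31.9 CPM in other CD4 cells. They also carried pre-TCR transcripts, with 155.5 CPM (knockout-labelled) and 57.0 CPM (WT) of Ptcra, against 15.3 and 13.7 CPM in other CD4 cells. The progenitor class had 280 and 256 CPM of Ptcra, and the pre-TCR class 669 and 692 CPM. It also held Tnfrsf4, an activation receptor known on Treg precursors, at 407 and 594 CPM, against 297 and 240 CPM in other CD4 cells. Over all genes compared, 9.29% lay above other CD4 cells by 1.5-fold and 8.83% below in knockout-labelled Foxp3+ cells, and 7.68% and 8.75% in WT. On a list of 13 other pre-TCR and Notch genes, 7 lay above other CD4 cells by 1.5-fold and 2 below in knockout-labelled Foxp3+ cells (summed level 2787 against 2504 CPM). In WT the same list had 4 above and 2 below (2284 against 2703 CPM), with none at 0. The class ratios of Foxp3+ and progenitor cells are therefore given also without cells holding a Ptcra UMI, which leaves 327 and 639 Foxp3+ cells and 201 and 236 progenitor cells in the knockout-labelled and WT CD25+ libraries. In Foxp3+ cells the 6 B cell markers summed to 25.5 and 16.8 CPM, with 4 and 3 of them at 0. The 9 stromal markers summed to 154.1 and 141.0 CPM in Foxp3+ cells, mostly Pecam1 (95.4 and 109.8 CPM) and with 5 and 6 at 0, against 86.0 and 86.2 CPM in other CD4 cells. The 9 markers of γδ T, NK and innate lymphoid cells summed to 292.5 and 227.8 CPM, against 221.1 and 211.9 CPM in other CD4 cells, and the part of these cells in the results was not tested.

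Cish, whose product binds phosphorylated receptors and limits STAT5 signalling, was highest in Foxp3+ cells of the CD25+ gate. Foxp3+ cells of the CD25+ gate held 194 CPM (95% Poisson interval 176 to 214) in the knockout-labelled and 163 CPM (149 to 177) in the WT library. The progenitor class held 46.6 CPM (39.0 to 55.3) and 82.0 CPM (70.8 to 94.5), other CD4 cells 47.4 and 39.3 CPM, and the pre-TCR class 20.96 and 27.0 CPM. The order was thus Foxp3+, progenitor, other CD4 and pre-TCR in WT, with no overlap of neighbouring intervals, whereas the progenitor and other CD4 intervals overlapped in the knockout-labelled library. After each cell was thinned to 1500 UMIs, 30.0% of Foxp3+ cells (112 of 373, interval 25.4 to 35.0%) held a Cish UMI in the knockout-labelled and 21.1% (139 of 658, 18.1 to 24.4%) in the WT library, against 6.84% and 5.25% of other CD4 cells. The unthinned shares were 47.6% and 39.8% in Foxp3+ cells against 18.0% and 15.1% in other CD4 cells, at median depths of 4288 and 4146 UMIs against 5648.5 and 5455 UMIs.

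Socs1, which blocks JAK activity directly, was present in every class and highest in Foxp3+ cells of the CD25+ gate. It was at 290 CPM (268 to 313) in knockout-labelled and 227 CPM (212 to 244) in WT Foxp3+ cells of the CD25+ gate. Every other class lay between 112 and 171 CPM, with the pre-TCR class at 149 and 169 CPM, the progenitor class at 133 and 147 CPM and other CD4 cells at 137 and 118 CPM in the CD25+ gate. The progenitor and other CD4 intervals overlapped in the knockout-labelled library. At 1500 UMIs, 38.3% of knockout-labelled and 26.1% of WT Foxp3+ cells held a Socs1 UMI, against 20.5% and 15.0% of other CD4 cells (62.0% and 47.9% against 44.3% and 39.1% unthinned).

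Socs2, best known for restraining growth hormone signalling, was higher in Foxp3+ and pre-TCR cells of the CD25+ gate than in the other classes. Foxp3+ cells of the CD25+ gate held 22.7 CPM (49 UMIs) and 24.6 CPM (82 UMIs) in the knockout-labelled and WT libraries, and the pre-TCR class held 11.4 and 16.0 CPM (555 UMIs each). The progenitor class had 4.59 and 4.30 CPM from 13 and 10 UMIs. Other CD4 cells held 1 UMI per CD25+ library, and 6 and 4 UMIs in the CD25- libraries. The 6 knockout-labelled UMIs lay in 2 cells, 1 of which held 5. At 1500 UMIs, 5.09% of knockout-labelled and 4.86% of WT Foxp3+ cells held a Socs2 UMI (7.97% and 8.54% unthinned), against 0 of 424 and 0 of 686 other CD4 cells, which allows shares of up to 0.708% and 0.437%. These zero shares are the background read against the other classes. Cells in none of the 4 classes held Socs2 as well, at 19.8 CPM (17.4 to 22.4) and 31.7 CPM (28.2 to 35.6) in the CD25+ libraries, and 28.9% and 31.1% of all Socs2 UMIs there.

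Socs3, which acts on gp130-type receptors and their JAKs, was instead highest in the pre-TCR class. It was at 54.0 CPM (2623 UMIs) and 60.3 CPM (2093 UMIs) there, against 2.91 and 4.04 CPM in other CD4 cells of the same knockout-labelled and WT libraries. Foxp3+ cells held 31.0 and 16.8 CPM. The progenitor class held 26.5 and 24.9 CPM, but only 4.74 and 5.47 CPM (9 UMIs each) once cells with a Ptcra UMI were left out, while Foxp3+ cells without Ptcra kept 28.5 and 15.0 CPM. Other CD4 cells of the CD25- gate lay between, at 13.1 and 12.03 CPM.

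Pim1, a survival kinase, was high in Foxp3+ and pre-TCR cells of the CD25+ gate alike. In this gate Foxp3+ cells held 145 CPM (130 to 162) and 158 CPM (145 to 173), and the pre-TCR class 129.6 and 131 CPM, in the knockout-labelled and WT libraries. The progenitor class was at 79.8 and 96.6 CPM, and other CD4 cells of this gate were lowest at 34.6 and 49.4 CPM. The Foxp3+ interval overlapped the pre-TCR interval in the knockout-labelled library only. At 1500 UMIs, 19.8% and 21.3% of Foxp3+ cells held a Pim1 UMI, against 18.8% and 19.8% of the pre-TCR class and 5.42% and 5.98% of other CD4 cells. Foxp3+ cells of the CD25- gate held 43.8 and 62.0 CPM of Pim1, against 52.8 and 41.3 CPM in other CD4 cells there.

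Pim2, a survival kinase of the same family, ran the other way. It was lowest in the pre-TCR class, at 3.75 and 4.75 CPM in the knockout-labelled and WT libraries, and highest in other CD4 cells, at 26.6 and 38.4 CPM in the CD25+ gate and 46.6 and 52.3 CPM in the CD25- gate. Foxp3+ cells of the CD25+ gate held 18.5 and 24.6 CPM, and the progenitor class 12.4 and 17.2 CPM. CD25- Foxp3+ cells held 43.8 CPM (15 UMIs, knockout-labelled) and 8.86 CPM (2 UMIs, WT). Osm, which encodes the cytokine oncostatin M, was low everywhere. It was at 10.6 and 14.1 CPM in Foxp3+ cells, 4.59 and 8.59 CPM in the progenitor class, 5.87 and 5.44 CPM in the pre-TCR class and 5.10 and 6.06 CPM in other CD4 cells of the CD25+ gate. The Foxp3+ interval lay above the pre-TCR interval in both libraries and above that of other CD4 cells in WT, and the other pairs of intervals overlapped. Of the chains of its receptor, Osmr had a single UMI, in the WT pre-TCR class, Lifr was at no more than 1.96 CPM, and Il6st, the shared chain gp130, ranged from 19.8 CPM in the WT pre-TCR class to 160.5 CPM in knockout-labelled CD25- Foxp3+ cells.

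**Figure D1:**
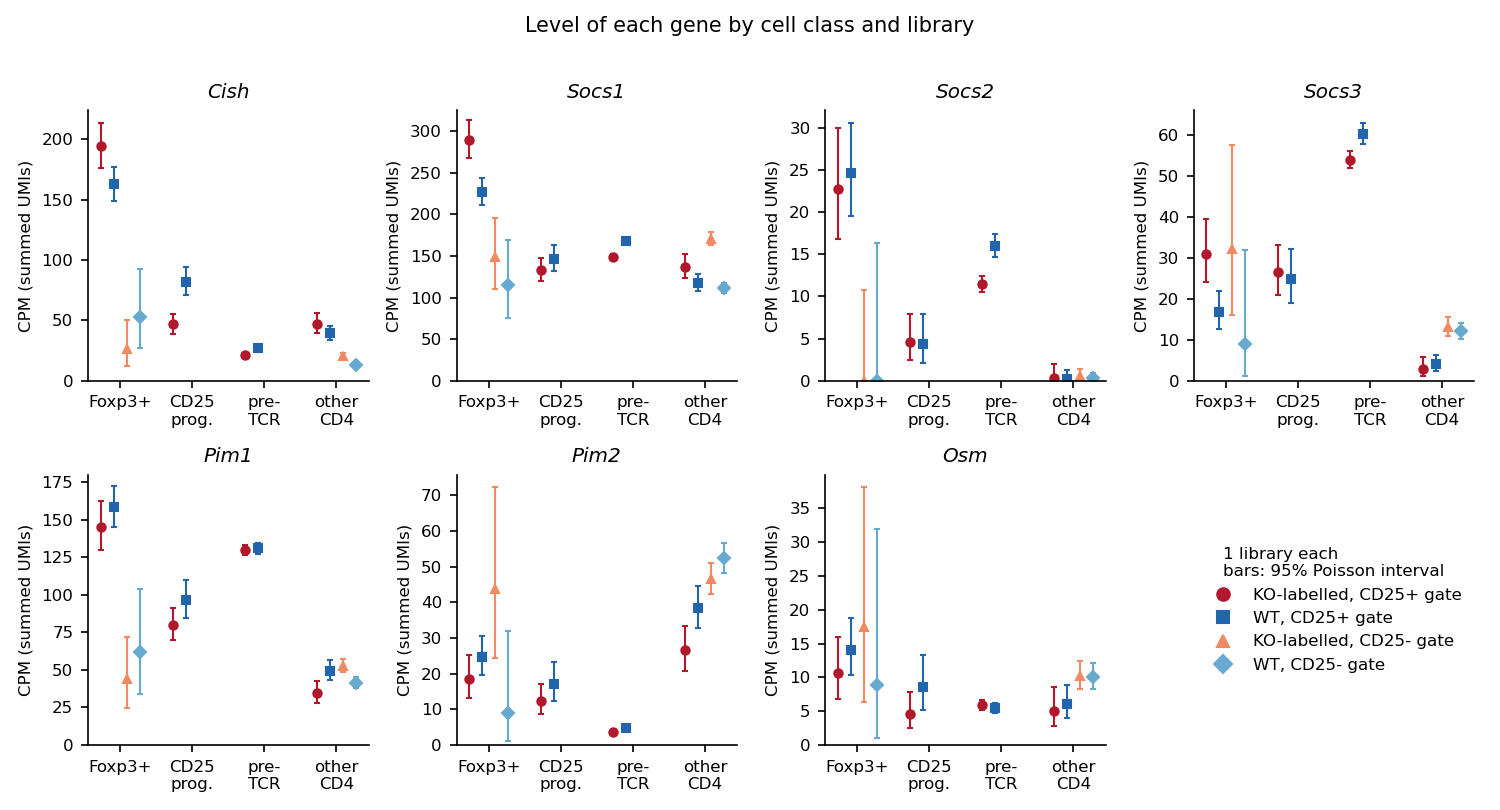
Level of each of the 7 genes in CPM (vertical axis, from 0) by cell class (horizontal axis) in the 4 libraries, with 95% Poisson intervals of the counts. Cish and Socs1 stand highest in Foxp3+ cells of the CD25+ gate, Socs3 in the pre-TCR class, Pim1 in both, and Pim2 in other CD4 cells of the CD25- gate.

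The first comparison set Foxp3+ against other CD4 cells within each CD25+ library. A gene entered a comparison at 20 CPM on either side and 20 UMIs over both, and was counted as different at 1.5-fold. In any comparison, a gene that reached 20 CPM on 1 side only could be called only as higher on that side. In the knockout-labelled library 5 of the 7 genes were higher and none lower, where 9.29% of 7058 genes were higher and 8.83% lower (18.1% in either direction). In the WT library 4 were higher and 1, Pim2, was lower, where 7.68% of 6992 genes were higher and 8.75% lower (16.4% in either direction). Cish was 4.11-fold (3.36 to 5.04) higher in the knockout-labelled and 4.14-fold (3.49 to 4.94) in the WT library, Socs1 2.11-fold and 1.93-fold, and Pim1 4.2-fold and 3.21-fold. Socs2 was 62.3-fold (10.7 to 2509) and 109.6-fold (19.1 to 4382) higher, with a single UMI on the other CD4 side each time. Socs2 in both libraries and Socs3 in the knockout-labelled one reached 20 CPM only in Foxp3+ cells, so they could be called in that direction alone. Against other CD4 cells of the CD25- gate, the log2 ratio of Socs3 was 1.24 (knockout-labelled) and 0.48 (WT), and that of Pim1 1.46 and 1.94. Socs3 was 10.6-fold (5.10 to 25.7) higher in the knockout-labelled library, and 4.16-fold (2.41 to 7.52) higher in WT, where its level of 16.8 CPM kept it out of the count. Pim2 was at 0.70 and 0.64 times the other CD4 level, and Osm at 2.09 and 2.33 times.

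Without cells holding a Ptcra UMI the ratios of Cish, Socs1 and Pim1 were larger. Cish was 5.50-fold (4.51 to 6.76) higher in knockout-labelled and 4.46-fold (3.75 to 5.32) in WT Foxp3+ cells, Socs1 2.53-fold and 2.02-fold, and Pim1 4.82-fold and 3.39-fold. Again 5 genes were higher in the knockout-labelled library, where 9.76% of genes were, and 4 in WT, where 7.42% were. Pim2 was then at 0.89 and 0.67 times the other CD4 level, within 1.5-fold in both libraries. Genes of the proliferation list moved with this split, since 0 of 16 of its genes were higher and 13 (knockout-labelled) or 15 (WT) were lower in Foxp3+ cells without Ptcra, and their part in the result was not tested. Over all genes, 16% (knockout-labelled) and 11.2% (WT) were lower.

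The progenitor class was defined by Il2ra without Foxp3 and not by any order in time, and it held Ptcra at the levels already given. Against other CD4 cells, Socs3 and Pim1 were higher and Pim2 lower in the knockout-labelled library (11.3% of 7167 genes higher, 9.35% lower, 20.7% in all). In WT, Cish, Socs3 and Pim1 were higher and Pim2 lower (9.99% of 7136 genes higher, 9.5% lower, 19.5% in all). In both libraries Socs3 reached 20 CPM only in the progenitor class and Pim2 only in other CD4 cells, which fixed the direction of their calls. Cells with Ptcra transcripts bore on these calls. Without them only Pim2 was called in the knockout-labelled library, at 0.53 times (0.32 to 0.83) the other CD4 level, where 23.5% of genes were called in either direction, and Socs3 no longer reached the minimum level in either. In WT, Cish was then 2.67-fold (2.16 to 3.32) and Pim1 1.61-fold (1.28 to 2.02) higher and Pim2 0.56 times as high, where 18.5% of genes were called. Cish in knockout-labelled progenitors without Ptcra was at 58.4 CPM, against 48.4 CPM in other CD4 cells, a ratio of 1.21 (0.93 to 1.57).

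Foxp3+ cells also stood above the progenitor class directly. Cish, Socs1, Socs2 and Pim1 were higher in both CD25+ libraries, where 11.2% of 7161 genes were higher in the knockout-labelled and 10.8% of 7096 in the WT library (27.4% and 27.2% in either direction). Socs2 reached 20 CPM only in Foxp3+ cells, so it could be called in that direction alone. Without Ptcra-bearing cells Cish was 4.56-fold (3.69 to 5.67) and 1.67-fold (1.40 to 1.99) higher in knockout-labelled and WT Foxp3+ cells, Socs1 2.86-fold and 1.94-fold, Socs2 5.53-fold and 4.75-fold, and Pim1 3.30-fold and 2.10-fold. Of all genes, 19.4% and 13.8% were then higher. Socs3 was 6.01-fold (2.89 to 14.0) and 2.74-fold (1.32 to 6.38) higher, on 9 progenitor UMIs in each library. In the knockout-labelled library it entered only through its Foxp3+ level of 28.5 CPM. In WT it lay under the minimum level on both sides (15.0 against 5.47 CPM) and was not counted.

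The pre-TCR class differed from other CD4 cells in another combination. Socs3 was 18.5-fold (9.39 to 43.0) higher in the knockout-labelled and 14.9-fold (9.42 to 25.2) in the WT library, and Pim1 3.74-fold and 2.65-fold. The Socs3 ratios rest on 8 and 18 other CD4 UMIs (2.91 and 4.04 CPM). Other CD4 cells of the CD25- gate held more Socs3, at 13.1 and 12.03 CPM. Pim2 was at 0.14 (0.11 to 0.19) and 0.12 (0.10 to 0.15) times the other CD4 level. Cish was at 0.44 times (0.37 to 0.54) in the knockout-labelled and 0.69 times (0.58 to 0.81) in the WT library, so it counted as lower in the first only. Against other CD4 cells of the CD25- gate the knockout-labelled direction turned, at a log2 ratio of 0.065, and the WT log2 ratio was 1.08. In all, 2 genes were higher and 2 lower in the knockout-labelled library (18.2% of 7492 genes higher, 15.3% lower, 33.5% in all), and 2 higher and 1 lower in WT (19.5% of 7508 higher, 15.6% lower, 35.1% in all). Of these, Socs3 reached 20 CPM only in the pre-TCR class and Pim2 only in other CD4 cells, which fixed the direction of their calls. Socs2, under the minimum level, was 31.4-fold (5.61 to 1241) and 71.2-fold (12.7 to 2819) higher against 1 UMI.

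**Figure D2:**
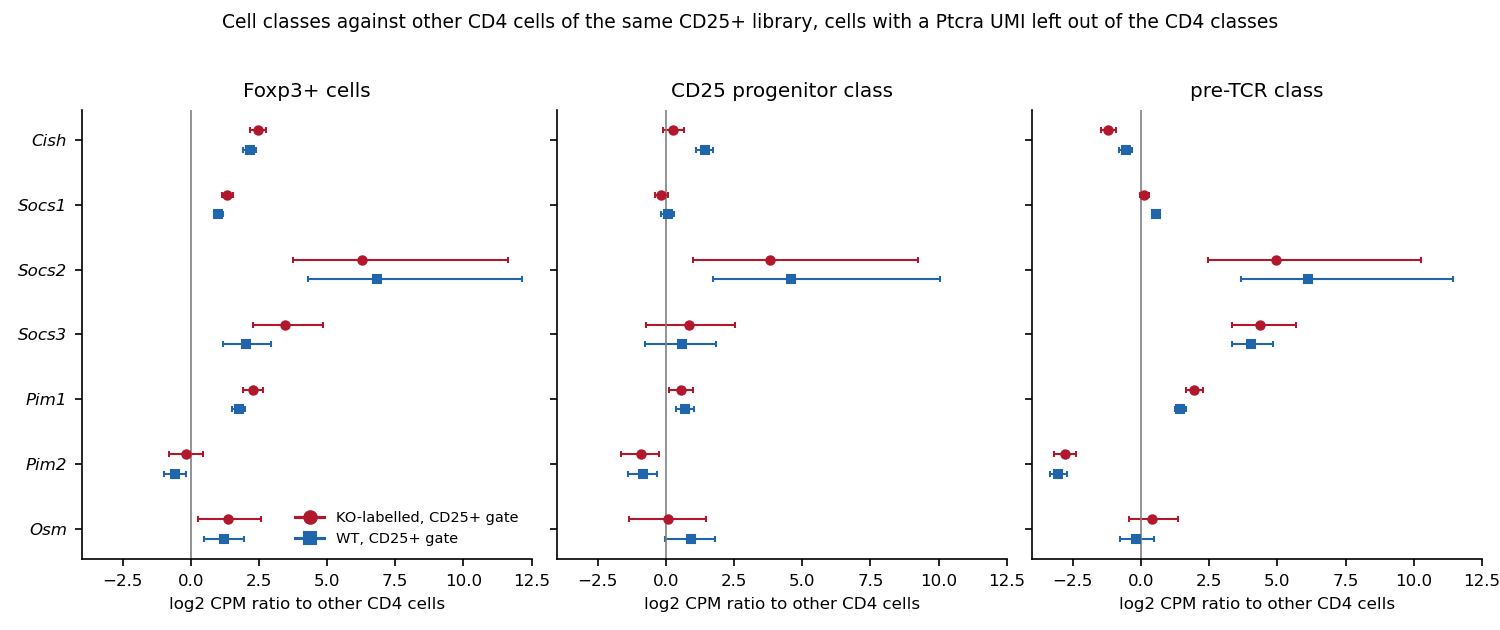
Log2 ratio of each gene's CPM to other CD4 cells of the same CD25+ library (horizontal axis, 0 means no difference) with 95% counting intervals, for Foxp3+ cells, the CD25 progenitor class and the pre-TCR class, cells with a Ptcra UMI being left out of the first 2 classes and of other CD4 cells. Cish, Socs1 and Pim1 lie to the right of 0 in Foxp3+ cells, Socs3 and Pim1 in the pre-TCR class, and Pim2 lies to the left of 0 in the pre-TCR class, while the wide Socs2 intervals rest on 1 other CD4 UMI per library.

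The gate itself separated Foxp3+ cells. Cish measured 194 CPM in CD25+ against 26.3 CPM in CD25- Foxp3+ cells of the knockout-labelled pair (7.40-fold, 3.86 to 16.3), and 163 against 53.2 CPM in those of the WT pair (3.06-fold, 1.74 to 5.96). Socs1 was 1.95-fold (1.46 to 2.64) and 1.97-fold (1.34 to 3.04) higher and Pim1 3.32-fold and 2.55-fold. Socs2 had 0 UMIs in CD25- Foxp3+ cells and was at least 2.59-fold (knockout-labelled) and at least 1.85-fold (WT) higher in the CD25+ gate, taking 3 counts as the limit for each CD25- library. These 4 genes were higher in both pairs, with Pim2 lower in the knockout-labelled pair and higher in the WT pair on 2 CD25- UMIs. Socs2 reached 20 CPM only in the CD25+ gate, so it could be called in that direction alone. Pim2 reached 20 CPM only in CD25- cells of the knockout-labelled pair and only in CD25+ cells of the WT pair. Without Ptcra-bearing cells the Cish ratio was 10.1-fold (5.29 to 22.3) and 3.35-fold (1.90 to 6.53), Socs1 2.34-fold and 2.04-fold and Pim1 3.69-fold and 2.64-fold. Without 1 WT CD25- cell that held 5 of its 12 Cish UMIs, left out after seeing the data, the WT Cish ratio was 5.13-fold (2.47 to 12.8). Of all genes, 17.9% were higher and 18.8% lower (36.7% in all) in the knockout-labelled pair, and 16.4% higher and 18.6% lower (34.9% in all) in the WT pair, on only 59 and 51 CD25- cells. Among other CD4 cells, Cish was 2.36-fold (1.88 to 2.96) and 3.09-fold (2.47 to 3.87) higher in the CD25+ gate, as 1 gene of 7 higher in each pair (9% and 7.34% of genes). In the WT pair Cish reached 20 CPM in the CD25+ gate only. Pim1 and Pim2 were at 0.66 and 0.57 times the CD25- level in the knockout-labelled pair (8.42% of genes lower, 17.4% in either direction) and at 1.20 and 0.73 times in the WT pair (6.15% lower, 13.5% in either direction). Gm42418, a gene model over ribosomal RNA and a sign of RNA quality, moved with the gate, at 5527 against 17191 CPM in knockout-labelled and 5713 against 29730 CPM in WT other CD4 cells. With Gm42418, receptor segments and the mitochondrial and ribosomal protein genes removed from the totals, the count of called genes in these gate comparisons stayed within 1.5 times.

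Foxp3+ cells were also set against other CD4 cells within the CD25- gate, on 59 and 51 Foxp3+ cells. In the knockout-labelled library Socs3 alone was higher (32.1 CPM from 11 UMIs, against 13.1 CPM), where 10.9% of 7134 genes were higher and 13.3% lower (24.1% in all). The 11 Socs3 UMIs lay in 6 cells, and 1 cell held 6 of them, so the call leans on that cell. The level without it was not computed. In WT, Cish (53.2 against 12.7 CPM, 4.18-fold, 2.11 to 7.52) and Pim1 (62.0 against 41.3 CPM, 1.5-fold, 0.815 to 2.54) were higher and Pim2 (8.86 against 52.3 CPM, 2 UMIs) lower, where 13% of 7110 genes were higher and 14.6% lower (27.7% in all). The calls of Socs3, Cish and Pim2 rest on genes that reached 20 CPM only on their higher side, which fixed the direction. A single WT cell with 4 or more Il2ra UMIs held 5 of the 12 Cish UMIs, and the other 50 Foxp3+ cells were at 31.7 CPM, 2.50-fold (0.986 to 5.27) the other CD4 level.

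Knockout-labelled and WT libraries were then compared class by class. Hspa8, a heat shock chaperone from the list of RNA quality and stress genes, moved with the label in every class. It measured 445 CPM in knockout-labelled against 1872 CPM in WT Foxp3+ cells of the CD25+ gate, 701 against 3109 CPM in the progenitor class, 483 against 2699 CPM in the pre-TCR class and 484 against 1755 CPM in other CD4 cells of the CD25- gate. Its part in the ratios that follow was not tested. In Foxp3+ cells of the CD25+ gate, Socs3 was the only gene past 1.5-fold, at 31.0 against 16.8 CPM (1.85-fold, 1.27 to 2.68), where 6.03% of 6919 genes were higher and 3.58% lower (9.61% in all). Socs3 reached 20 CPM only in the knockout-labelled cells, so it could be called only as higher. Cish was 1.20-fold (1.05 to 1.36) and Socs1 1.27-fold (1.14 to 1.42) higher, and without Ptcra-bearing cells 1.49-fold (1.31 to 1.70) and 1.48-fold (1.32 to 1.66), just inside the limit, with Socs3 at 1.90-fold (1.22 to 2.94). Socs2 (0.92), Pim1 (0.92), Pim2 (0.752) and Osm (0.755) had ratios whose intervals included 1. Pre-TCR and cycling transcripts moved with the label, since 5 of 11 pre-TCR and Notch genes and 11 of 15 proliferation genes were higher in knockout-labelled Foxp3+ cells and none lower. Without Ptcra-bearing cells 5 of 13 proliferation genes were higher, where 3.35% of all genes were, and the part of the rest in these ratios was not tested.

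In the progenitor class the direction of Cish was the opposite. It measured 46.6 CPM in knockout-labelled against 82.0 CPM in WT progenitors, a ratio of 0.57 (0.45 to 0.71), as the only gene called, where 5.78% of 7123 genes were higher and 5.04% lower (10.8% in all). Without Ptcra-bearing cells Cish was at 0.55 times (0.43 to 0.70), Pim1 at 0.63 times (0.48 to 0.83) and Pim2 at 0.63 times (0.36 to 1.06) the WT level, where 9.05% of genes were lower. With cells weighted equally the Cish ratio was no longer past 1.5-fold (log2 of -0.55). Of 15 other STAT5 targets, 0 were higher and 5 lower in the knockout-labelled progenitors (median log2 ratio -0.52, against -0.02 over all genes), with Ltb lowest at -1.15, and without Ptcra-bearing cells 0 were higher and 6 lower. Proliferation genes again moved with the label, 14 of 15 being higher and none lower, and their part was not tested.

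The pre-TCR class, which had the most cells in the CD25+ gate, had none of the 7 genes past 1.5-fold (2.3% of 7084 genes higher, 1.74% lower, 4.04% in all). Its intervals cover counting error alone, and with 1 library per group they show nothing of the spread between samples. Socs2 was at 0.715 times (0.634 to 0.805) the WT level, Cish at 0.777 (0.711 to 0.850), Socs1 at 0.885 (0.855 to 0.916) and Socs3 at 0.896 (0.845 to 0.949), while Pim1 was at 0.99 (0.95 to 1.03). Other CD4 cells of the CD25+ gate had none past 1.5-fold either (2.01% of 6882 genes higher, 2.32% lower, 4.33% in all), with Pim1 at 0.70 (0.54 to 0.90) and Pim2 at 0.69 (0.52 to 0.92). In the CD25- gate, Cish (20.03 against 12.7 CPM, 1.58-fold, 1.27 to 1.96) and Socs1 (171 against 112 CPM, 1.53-fold, 1.42 to 1.64) were higher in knockout-labelled other CD4 cells, where 1.76% of 6806 genes were higher and 0.896% lower (2.66% in all). Of the 2, Cish reached 20 CPM only in the knockout-labelled cells, so it could be called only as higher. Pim1 was 1.28-fold (1.13 to 1.45) higher, and Socs3, Pim2 and Osm had intervals that included 1. Gm42418 measured 17191 CPM in these knockout-labelled cells and 29730 CPM in WT. With it, receptor segments and the mitochondrial and ribosomal protein genes removed together from the totals, Cish and Socs1 stayed past 1.5-fold. At a stricter cell filter of 1000 genes and 5% mitochondrial UMIs neither was called, with log2 ratios of 0.62 for Cish, whose level fell under the minimum, and 0.54 for Socs1. In CD25- Foxp3+ cells, Cish had 9 UMIs in the knockout-labelled and 12 in the WT library, a ratio of 0.49 (0.18 to 1.28), and 0.828 (0.274 to 2.62) without the WT cell that held 5 of the 12, where 12.2% of 4833 genes were higher and 14.1% lower (26.3% in all).

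**Figure D3:**
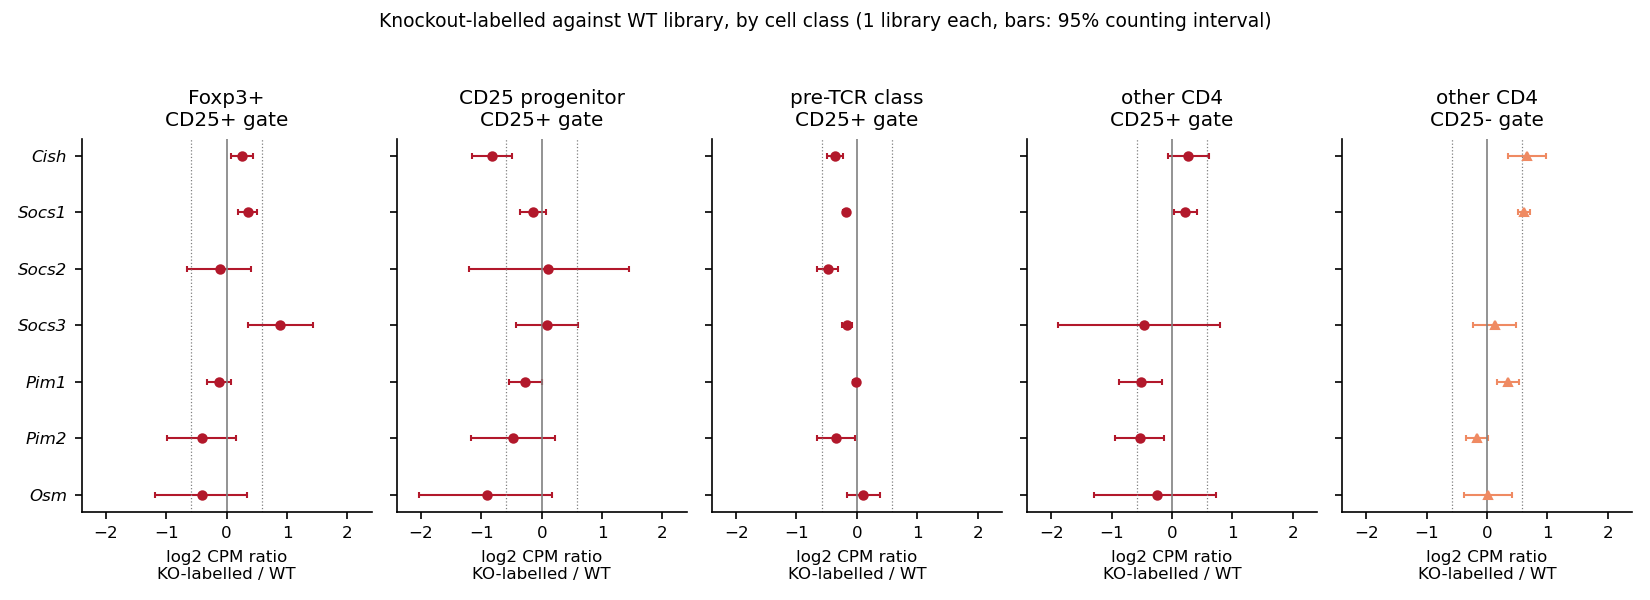
Log2 ratio of CPM in the knockout-labelled to the WT library (horizontal axis) for each gene by class and gate, with 95% counting intervals, for genes with at least 20 UMIs over both libraries, where dotted lines mark 1.5-fold. Cish lies left of the lines in the progenitor class and right of them in other CD4 cells of the CD25- gate, and Socs3 lies right of them in Foxp3+ cells.

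Within a class, the genes were followed over UMI counts of receptor and state genes, which rise with a cell's depth, so only CPM is compared. In Foxp3+ cells without Ptcra, Cish in the knockout-labelled library was at 217, 239, 295 and 299.5 CPM at 0, 1, 2 to 3 and 4 or more Il2ra UMIs, and in the WT library at 107, 142, 199.95 and 244 CPM. Socs2 was at 4.6 CPM without Il2ra and 48.7 CPM at 4 or more in the knockout-labelled library, and at 9.9 and 42.5 CPM in WT. Pim1 was at 94.5 CPM without Il2ra and between 183 and 191 CPM with it in the knockout-labelled cells, and at 84.3 CPM without and 212 CPM at 4 or more in WT. Socs1 was lowest without Il2ra, at 251 and 136 CPM, and peaked at 2 to 3 UMIs, at 439 and 297 CPM. Socs3 was also lowest without Il2ra, at 11.5 and 7.66 CPM, and at 57.1 and 19.0 CPM with 2 to 3 UMIs. Pim2 and Osm showed no order over the tiers. The knockout-labelled Socs2 level without Il2ra rests on 2 UMIs. Over all tiers the 45 knockout-labelled Socs2 UMIs lay in 27 cells, 1 of which held 8. Foxp3+ cells without an Il2ra UMI thus still held more Cish in the knockout-labelled library (217 CPM, from 93 cells) than in WT (107 CPM, from 212 cells).

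**Figure D4:**
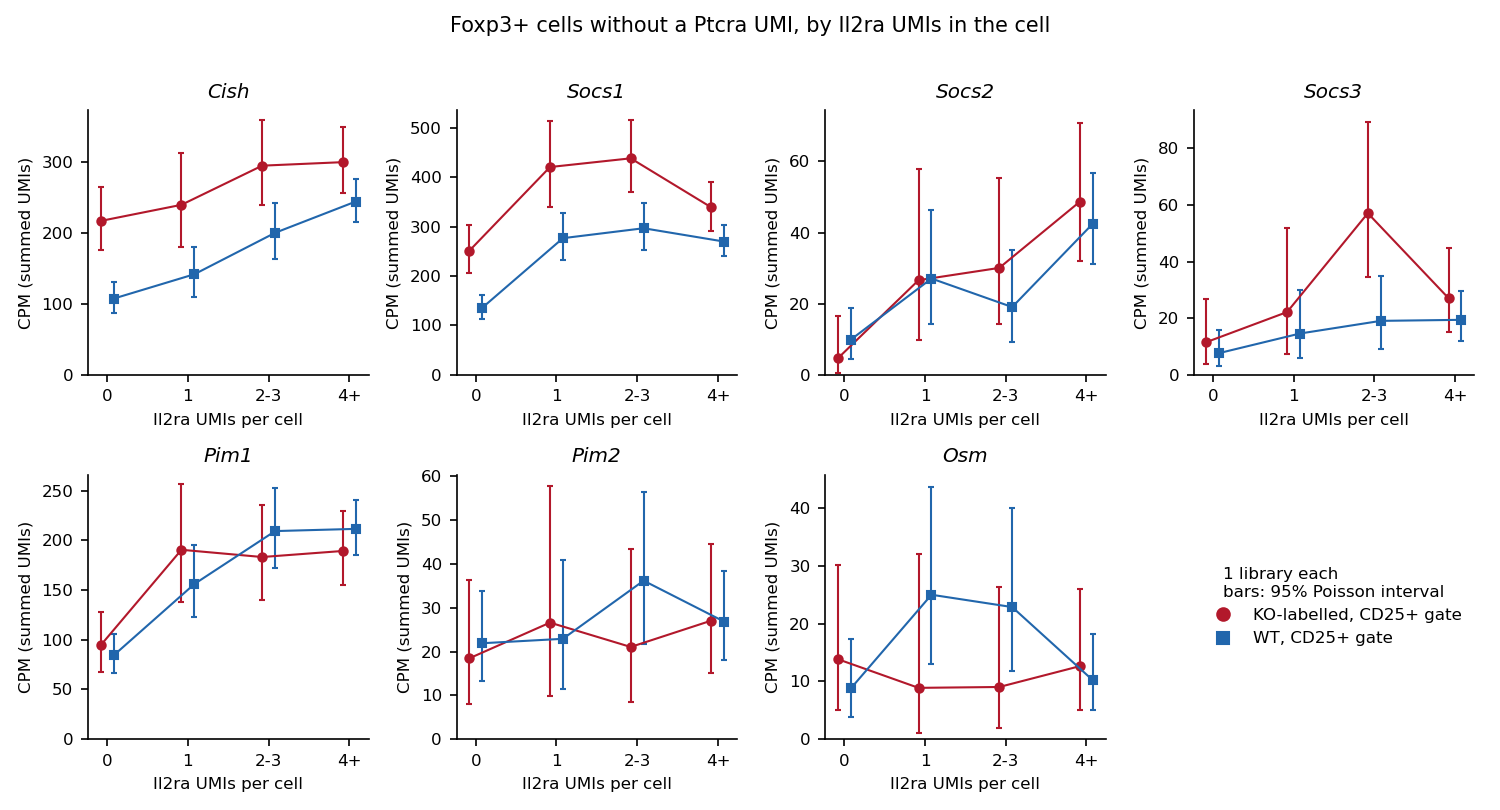
CPM of each gene (vertical axis, from 0) in Foxp3+ cells without a Ptcra UMI, by the number of Il2ra UMIs in the cell (horizontal axis), in the knockout-labelled and WT CD25+ libraries, with 95% Poisson intervals. Cish, Socs1, Socs2 and Pim1 are lowest in cells without an Il2ra UMI in both libraries, whereas Pim2 and Osm show no order over the tiers.

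The cells were also divided by Il2rb, the signalling chain of the interleukin 2 receptor. In WT Foxp3+ cells without Ptcra, Cish was at 209 CPM with an Il2rb UMI and 120 CPM without (1.75-fold, 1.42 to 2.15), and Socs2 at 33.6 and 11.6 CPM (2.90-fold, 1.55 to 5.89). In the knockout-labelled cells Cish was at 282 and 230.2 CPM and Socs2 at 26.6 and 35.1 CPM, and only Socs1 (375 and 283 CPM, 1.33-fold, 1.09 to 1.63) had an interval above 1. In progenitors without Ptcra, Cish was 2.69-fold (1.82 to 3.99) higher with Il2rb in the knockout-labelled (104 against 38.6 CPM) and 2.45-fold (1.80 to 3.34) in the WT library (178 against 72.4 CPM). Over all genes, with Ptcra-bearing cells included, 14.4% were higher by 1.5-fold and 25.4% lower with Il2rb in knockout-labelled Foxp3+ cells. The shares were 3.75% and 15.6% in WT Foxp3+ cells, 10.4% and 15.2% in knockout-labelled progenitors, and 10.5% and 16.7% in WT progenitors. Nr4a1, a gene switched on by T cell receptor signals, was used for a further split. With against without Nr4a1, Foxp3+ cells without Ptcra held 3.75 CPM (1 UMI) against 33.6 CPM of Socs3 in the knockout-labelled library, and 3.56 CPM (2 UMIs) against 17.6 CPM in WT. In other CD4 cells of the CD25- gate Socs3 was at 4.54 against 15.0 CPM (0.303, 0.128 to 0.615) in the knockout-labelled and 10.4 against 12.3 CPM (0.846, 0.499 to 1.36) in the WT library, and in progenitors without Ptcra the intervals included 1. Among WT Foxp3+ cells Socs1 was also lower with Nr4a1, at 126 against 260 CPM (0.49 times, 0.38 to 0.62), while the knockout-labelled cells held 326 against 352.5 CPM. In other CD4 cells Socs1 was instead higher with Nr4a1 in the WT CD25+ (1.29, 1.07 to 1.55), knockout-labelled CD25- (1.29, 1.15 to 1.45) and WT CD25- libraries (1.25, 1.08 to 1.43). Cish was higher there in the knockout-labelled CD25+ (1.93, 1.35 to 2.77), knockout-labelled CD25- (1.60, 1.14 to 2.21) and WT CD25- libraries (1.57, 1.04 to 2.31). In the remaining library of each gene the interval included 1. With Nr4a1, 5.86% of all genes were higher by 1.5-fold and 8.57% lower in knockout-labelled CD25+ other CD4 cells (4.15% and 4.29% in WT). In the CD25- gate the shares were 3.16% and 2.46% (knockout-labelled), and 3.01% and 1.73% (WT). Among Foxp3+ cells, Ptcra-bearing ones included, they were 10.1% and 10.5%, and 6.15% and 10.2%. In progenitors, likewise, they were 12.2% and 18.9%, and 13.9% and 18.5%.

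Other CD4 cells of the CD25- gate were ordered by Ccr9, carried by recent CD4 thymocytes, and S1pr1, the exit receptor of mature ones. Cells with S1pr1, against cells with Ccr9 and no S1pr1, held more Socs3, at 21.1 against 3.70 CPM in the knockout-labelled (5.71-fold, 3.24 to 10.8) and 18.3 against 4.12 CPM in the WT library (4.44-fold, 2.60 to 8.08). Pim1 (67.5 against 27.5 CPM, and 52.2 against 27.0 CPM) and Pim2 (56.5 against 30.4 CPM, and 70.1 against 30.9 CPM) were also higher in both. Socs1 was lower, at 133 against 226 CPM (0.59 times, 0.53 to 0.65) in the knockout-labelled and 84.9 against 155 CPM (0.55 times, 0.48 to 0.62) in the WT library, and the Cish intervals included no difference (1.13-fold, 0.814 to 1.56, and 0.888-fold, 0.594 to 1.33). Past 1.5-fold were 7.45% of all genes upwards and 12.8% downwards in the knockout-labelled cells, and 6.4% upwards and 10.8% downwards in WT. In the pre-TCR class, cells with a Mki67 or Top2a UMI, which mark division, held less Cish (11.5 against 30.4 CPM, and 15.5 against 34.1 CPM), Socs1 (104 against 194 CPM, and 108 against 206 CPM) and Socs3 (33.5 against 74.5 CPM, and 30.3 against 78.9 CPM) in the knockout-labelled and WT libraries. Pim1 was at 0.72 and 0.63 times the level of the other cells. Socs2 was at 14.3 against 8.60 CPM (1.66-fold, 1.39 to 1.98) in the knockout-labelled library and its interval included 1 in WT, where 11.1% and 13.5% of all genes were lower and 9.83% and 11.2% higher.

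**Figure D5:**
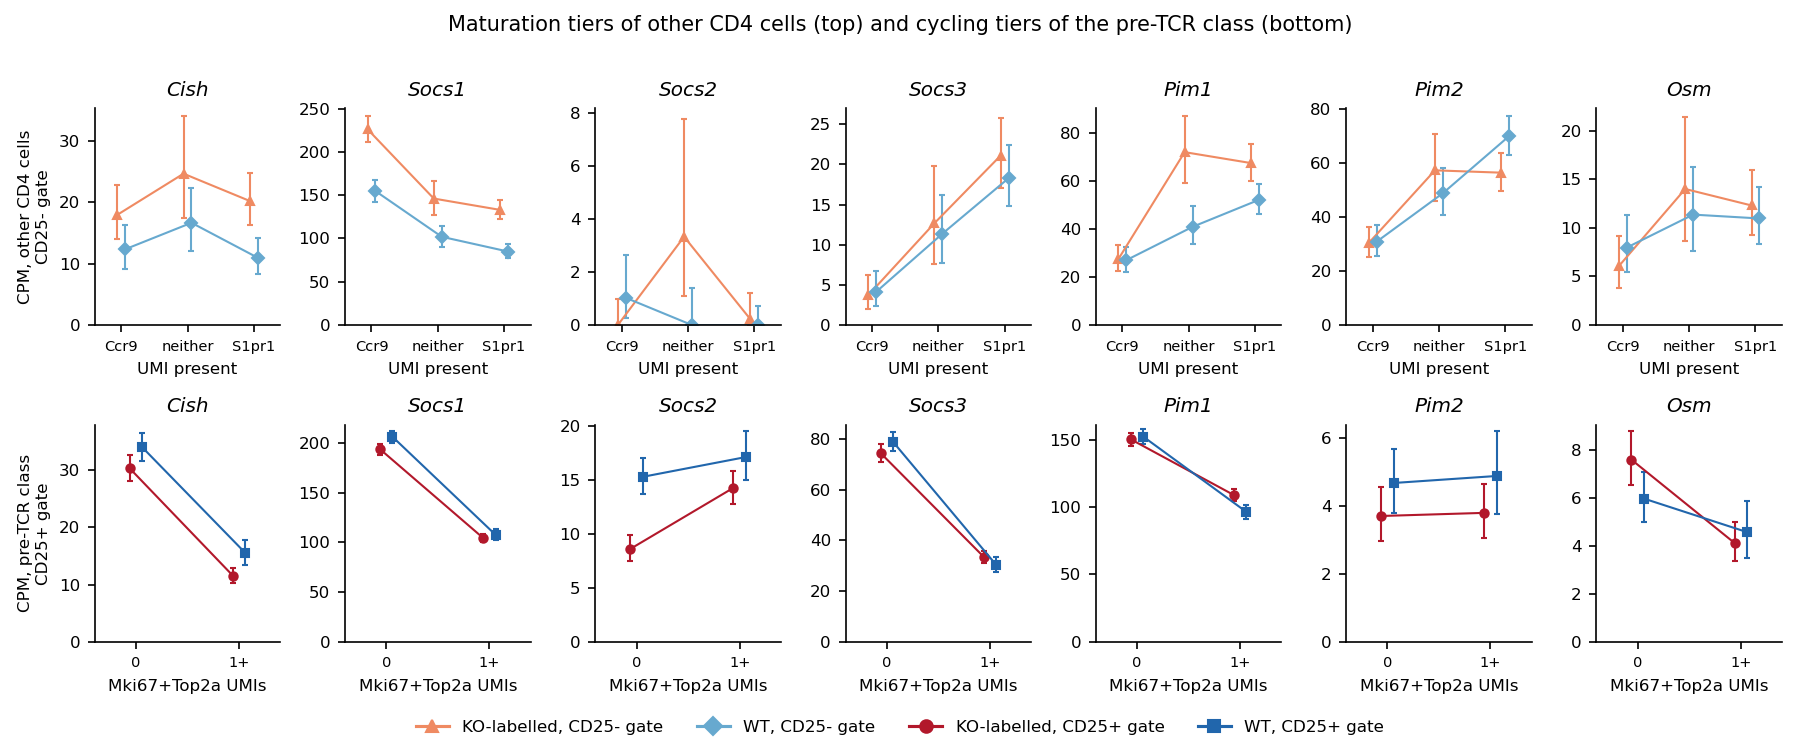
CPM of each gene (vertical axes, from 0) with 95% Poisson intervals in other CD4 cells of the CD25- gate that hold Ccr9 without S1pr1, neither, or S1pr1 (top row), and in the pre-TCR class of the CD25+ gate without or with a Mki67 or Top2a UMI (bottom row). Socs3 and Pim2 are higher and Socs1 lower towards S1pr1 in both libraries, and Cish, Socs1, Socs3 and Pim1 are lower in dividing pre-TCR cells.

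The rest of the pathway was read in Foxp3+ against other CD4 cells of the CD25+ gate, with Ptcra-bearing cells included, where the median log2 ratio over all genes was -0.07 in the knockout-labelled and -0.06 in the WT library. Over all genes, 9.29% were higher and 8.83% lower in the knockout-labelled library, and 7.68% and 8.75% in WT. Of 21 other STAT5 targets, 15 entered, with 7 higher and 4 lower in the knockout-labelled library (median log2 ratio 0.52) and 9 higher and 2 lower in WT (0.75). Ctla4, an inhibitory receptor of Tregs, was the highest, at log2 ratios of 2.67 and 3.25, and Id2, an inhibitor of E proteins, the lowest, at -2.31 and -2.94. Of 11 JAK and STAT genes 4 were higher in the knockout-labelled and 3 in the WT library and none lower, led by Stat4. Stat5a was at 109 against 80.1 CPM and 142 against 65.3 CPM, and Stat5b at 161 against 129 CPM and 179 against 133 CPM, both named for their role and outside the rule for named genes. Of 14 receptors that entered, 5 were higher and 1 lower in each library, with Ifngr1, the interferon γ receptor, highest and Il7r, the interleukin 7 receptor, lowest.

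The closest relatives of the 7 genes had few calls. The shares over all genes were again 9.29% higher and 8.83% lower in the knockout-labelled library, and 7.68% and 8.75% in WT. A single call in a list this short cannot be set apart from these shares. Of Socs4, Socs5, Socs6, Socs7 and Pim3, 2 entered in each library, and Socs6 was called lower in the knockout-labelled library (log2 ratio -0.68) while none was called in WT. The 6 ubiquitin ligase partners of the SOCS box had 1 lower gene, Cul2, in the knockout-labelled library and none in WT. Among 13 other JAK-STAT inhibitors, 1 was higher and 1 lower in the knockout-labelled library and 2 were higher in WT, with Usp18, an interferon-induced protease, at the top. Interferon response genes were higher in 8 and 5 of 12 cases and lower in none, led by Iigp1. T cell receptor response genes ran lower in 10 of 16 cases and higher in 2 in the knockout-labelled library (median log2 ratio -0.90), and lower in 6 and higher in 5 in WT (-0.26). Without Ptcra-bearing cells 7 were lower and 3 higher in the knockout-labelled library (-0.49) and 6 lower and 4 higher in WT (-0.17). Over all genes, 16% were then lower and 9.76% higher in the knockout-labelled library, and 11.2% lower and 7.42% higher in WT.

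Among 12 library and class units of at least 50 cells, the genes whose log2 level was most like each of the 7 were named as a description over 7915 genes, since the units share libraries and depth. Cish was most like Hopx (r = 0.94), Snx18 and Lrrc32, and Socs1 most like Slc35d1 (0.84), AW112010 and Dbp. Socs2 followed Cpa3 (0.98), Capg and Dbp, and Socs3 followed Aff1 (0.98), Top3b and Mgat4a. Pim1 was most like Etfbkmt (0.93), Ifngr1 and Cpa3, Pim2 most like Tnk2 (0.97), Ext1 and Icam2, and Osm most like Irgm2 (0.92), Gsdmd and Nipal3. Among the 7 themselves, Socs2 and Pim1 were closest (r = 0.95), Cish and Socs1 had r = 0.68, and Pim1 and Pim2 had r = -0.64.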

How the data were processed

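The files held UMI counts per gene and cell barcode, deposited by the authors as filtered 10x matrices of 10801 (knockout-labelled CD25+), 8609 (WT CD25+), 3577 (knockout-labelled CD25-) and 5315 (WT CD25-) barcodes. Cell Ranger was version 6.2.1 per the submitters' processing notes and 6.1.2 per the file headers, on mm10. Barcodes with at least 500 genes and under 10% mitochondrial UMIs were kept. Too few genes removed 1.38%, 1.59%, 42.9% and 34.3% of the barcodes of the libraries in that order. The top Scrublet scores were removed as doublets at 0.8% per 1000 barcodes, which took 8.64%, 6.89%, 2.89% and 4.27%. Python 3.11.15, scanpy 1.11.5, scipy 1.17.1 and numpy 2.4.6 were used.

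Raw counts were summed per library and class. A cell meeting both the pre-TCR and the progenitor rule went to the pre-TCR class, and cells meeting no rule were left out of the comparisons. With 1 library per group there was no test. Levels have exact Poisson, ratios exact conditional binomial and shares Clopper-Pearson 95% intervals, all covering counting error only. Genes entered at 20 CPM on either side and 20 UMIs over both, and were counted at 1.5-fold. A count of 0 was given the limit of 3 counts. For shares, cells were thinned to 1500 UMIs, leaving out 105 of 7738, 86 of 6497, 43 of 1493 and 246 of 2331 classed cells. Likeness used Pearson's r of log2(CPM + 5). From the 19 gene lists, the highest and lowest member of a list were named, and the top 3 genes by likeness. The ratio and interval code was tested on simulated data. The members, classes and lists were chosen with earlier results of these data known. Alternatives covered doublets, cell filters, class rules, cell weighting, totals, centring, minimum level and the size of the ratio.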

Additional observations from a re-analysis of the deposited data

Results flagged for a closer look

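Pim2 differed between the genotypes in its gate ratio within Foxp3+ cells. The ratio of CD25+ to CD25- cells was 0.423 in the knockout-labelled pair and 2.78 in the WT pair, which held 2 Pim2 UMIs in its CD25- cells. Pim2 reached 20 CPM on the higher side alone in each pair, which fixed the direction of its calls. The difference between these ratios was not tested.

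The ratio of Cish in knockout-labelled to WT cells lay on both sides of 1. It was 1.58 in other CD4 cells of the CD25- gate, a call lost under the stricter cell filter, and 0.568 in the progenitor class of the CD25+ gate, a call lost with cells weighted equally. It was 0.494 (0.18 to 1.28) in Foxp3+ cells of the CD25- gate, and 0.828 (0.274 to 2.62) without the WT cell that held 5 of the 12 WT UMIs. These differences were not tested either.

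Cells in none of the 4 classes also held the genes. Socs2 was at 31.7 CPM in such cells of the WT CD25+ library, and those cells held 193.6 CPM of Cpa3, a mast cell and progenitor protease, and 866.5 CPM of Tcrg-C1, a γ chain constant gene. In the knockout-labelled CD25+ library such cells held 19.8 CPM of Socs2, 159.2 CPM of Cpa3 and 445.9 CPM of Tcrg-C1. Whether Cpa3 and Tcrg-C1 set these cells apart from the 4 classes was not tested. In the CD25- libraries such cells held 49.0 CPM (knockout-labelled) and 57.5 CPM (WT) of Pim2, and 12.4 CPM of Socs3 in WT. They held 28039 and 60219 CPM of Gm42418.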

How the results depend on the processing

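Of 1227 log2 ratios recomputed for the 7 genes, 1147 moved by less than their counting interval, 79 moved further and 1 called ratio changed direction. The shift was greatest with other CD4 cells of the CD25- gate in place of those of the CD25+ gate, where 27 of 42 ratios moved and 14 did not. Cish in the knockout-labelled pre-TCR class had a log2 ratio of 0.065 there, and 5 genes were then called in the WT pre-TCR class. Counts of called genes, in either direction, stayed within 1.5 times in 224 of 261 cases, and the others follow. Shares of cells with a UMI moved past their interval in 171 of 252 cases across thinning depths.

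At a minimum of 50 CPM, Foxp3+ against other CD4 cells gave 3 calls in each CD25+ library and 0 in the knockout-labelled CD25- library. The progenitor class then gave 1 (knockout-labelled) and 2 (WT), the knockout-labelled pre-TCR class 2, the gate 3 in Foxp3+ cells of each genotype, and the gate 1 (knockout-labelled) and 0 (WT) in other CD4 cells. Knockout-labelled against WT gave 0 in CD25+ Foxp3+ cells and 1 in CD25- other CD4 cells. At 10 CPM the gate gave 5 and 3 in other CD4 cells, and CD25- Foxp3+ against other CD4 cells gave 2 in the knockout-labelled library, as it did with Gm42418, receptor segments, mitochondrial and ribosomal protein genes removed from the totals. At 2-fold the gate gave 1 in knockout-labelled other CD4 cells. WT Foxp3+ cells then gave 3 against other CD4 and 1 against progenitor cells, and knockout-labelled against WT gave 0 in CD25+ Foxp3+, progenitor and CD25- other CD4 cells.

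With Cd4 and Trac summing to at least 2 UMIs, the progenitor class gave 1 (knockout-labelled) and 2 (WT), and knockout-labelled against WT gave 2 in progenitors and 0 in CD25- other CD4 cells. Without Ptcra-bearing cells knockout-labelled progenitors gave 1 against other CD4 cells and 3 against WT. With cells weighted equally the gate gave 1 in knockout-labelled other CD4 cells, and knockout-labelled against WT gave 0 in progenitors and 3 in CD25- Foxp3+ cells. At 1000 genes and 5% mitochondrial UMIs, knockout-labelled against WT gave 1 in CD25+ other CD4, 2 in CD25- Foxp3+ and 0 in CD25- other CD4 cells. It gave 1 in CD25- other CD4 cells with doublets kept, and 0 in CD25- Foxp3+ cells where the interval had to exclude 1. The causes were not tested.

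No paired analysis was possible because each group has 1 library and shares 1 replicate number with the others. The gate ratios are given within each genotype, and a fit of the gate over both genotypes was not run. Foxp3+ cells set at 2 UMIs left too few CD25- cells for a value. Depth limits Socs2, Osm and every CD25- Foxp3+ level, which rest on 59 and 51 cells.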

Other observations

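The classes took unequal parts of each gene's UMIs in the knockout-labelled and WT CD25+ libraries. The pre-TCR class held 87.6% and 86.9% of the Socs3 UMIs, 73.9% and 65.5% of the Pim1 UMIs and 63.9% and 59.0% of the Socs2 UMIs. Cells in no class held 28.9% and 31.1% of the Socs2 UMIs.

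Foxp3+ cells without Ptcra were split by Socs2, a split chosen after seeing the data, into 27 knockout-labelled and 55 WT cells with a Socs2 UMI and the rest. Tcrg-C1 was at 227.2 against 20.4 CPM in knockout-labelled and 78.6 against 30.0 CPM in WT cells, with against without Socs2. Cpa3 was at 79.5 against 23.4 CPM and 56.2 against 28.5 CPM. Trdc, the δ chain constant gene, was at 102.2 against 17.5 CPM in knockout-labelled and 11.2 against 12.8 CPM in WT cells. Of genes known from Tregs, Ctla4 was at 255.6 against 315.3 CPM and 389.3 against 316.1 CPM. Ikzf2 was at 420.3 against 574.4 CPM and 688.8 against 840.3 CPM, and Ikzf4 at 96.6 against 101.4 CPM and 119.8 against 123.6 CPM. Lrrc32 was at 45.4 against 85.4 CPM and 123.5 against 56.0 CPM, and Il2rb at 312.4 against 417.5 CPM and 527.8 against 315.0 CPM. Tnfrsf4 was at 812.3 against 931.2 CPM and 864.7 against 733.1 CPM, and Tnfrsf18 at 715.7 against 700.6 CPM and 685.1 against 589.0 CPM. Cd5, from the markers of conventional CD4 cells, was at 329.4 against 475.1 CPM and 501.6 against 602.9 CPM.

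In the pre-TCR class, split by Il2ra UMIs after seeing the data, Socs2 was at 4.7 CPM without Il2ra and 12.1 CPM at 4 or more UMIs in the knockout-labelled library. In WT it was at 4.99 and 16.3 CPM, on 3 UMIs without Il2ra.

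Other CD4 cells were also split by an Isg15 or Ifit3 UMI, both interferon response genes. With against without these UMIs, the ratio of Osm in the CD25- gate was 1.78 (1.11 to 2.94) in the knockout-labelled and 1.67 (1.14 to 2.46) in the WT library, where 1.88% and 1.89% of genes were higher by 1.5-fold. In the CD25+ gate it was 1.79 (0.537 to 6.78) and 1.19 (0.52 to 2.76). Pim1 had ratios of 2.5 (1.58 to 4.06) and 1.33 (1.01 to 1.75) in the CD25+ gate, where 6.52% and 6.13% of genes were higher, and 1.2 (0.998 to 1.46) and 1.1 (0.919 to 1.32) in the CD25- gate.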
